A study of Mus musculus with 28 samples.

Results

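The long distal H3K27ac clusters of NMuMG cells were taken as stretches of the genome in which wide acetylated regions lie side by side, away from gene starts, and are present in every condition studied. The overlapping peaks of 15 H3K27ac ChIP-seq libraries were merged into 89050 regions. The 26934 regions that were called in all 15 libraries were kept, and of these the 14242 that lay more than 2500 bp from every transcription start site of a protein-coding gene were called distal. Distal regions within 12.5 kb of each other were stitched into 9420 clusters, and the 500 clusters with the largest summed region width were selected. They hold 2250 regions, which are 15.8% of the distal regions and 16.5% of their width. The clusters were thus chosen by the width of their peaks and by calling in all libraries, both of which are descriptions here and not results. The width is that of the merged regions and is the same for every condition, and a complete loss in a condition cannot appear among them. At the edge of the selection, the clusters nearest to Cd47 (rank 499, 5117 bp) and Rbfox2 (rank 500, 5109 bp) were the last inside, and those nearest to Kif26b (5106 bp) and Rasgef1b (5102 bp) the first outside. A cluster is named by the protein-coding gene with the nearest start site, and where several clusters share that gene they are numbered along the chromosome. The name says nothing of which gene a cluster controls, and no expression value was used.

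H3K27ac, the acetylation of lysine 27 of histone H3, marks active promoters and active enhancers and is placed by the acetyltransferases p300 and CBP. Enhancers are bound by transcription factors and act on promoters over distance, and dense groups of strongly acetylated enhancers often lie near genes that define a cell type or answer to a signal. TGF-β drives epithelial to mesenchymal transition (EMT) through SMAD factors and also through kinases that include ERK, which in turn acts on AP-1 and ETS factors.

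NMuMG is an epithelial cell line of the mouse mammary gland that undergoes EMT under TGF-β, and a single subclone, NMuMG/E9, was used throughout. The 15 libraries are 3 replicates each of cells without TGF-β (0h), cells given TGF-β at 2 ng/ml with the solvent DMSO for 4h or 24h, and cells given TGF-β for 4h or 24h with UO126 at 25 µM (ERKi), an inhibitor of the kinase MEK that was added 30 min earlier and keeps ERK from being activated. The libraries used here include no cells kept for 4h or 24h without TGF-β and none given UO126 alone, so TGF-β and time in culture cannot be told apart, and neither can an effect of UO126 on TGF-β signalling and an effect of its own. The labels do not say whether replicates came from separate cultures, and p-values then measure only the spread between these libraries. The lists held between 50445 and 69180 peaks per library, without read totals. Start sites of 7 of 12 markers of mammary epithelium, among them Cdh1, Krt8, Krt18 and Ehf, held a peak in 15 of 15 libraries, whereas Epcam, Cldn7 and Esrp1 held none in any library. Of 15 markers of other cell types, 11 held no peak in any library, and the highest, Myog, held one in 7.

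The acetylation of a region in a library was read from its highest peak. From the fold enrichment and p value of each peak, its pileup (how many fragments cover the summit) and the local background were recovered, and the peak was given its percentile by pileup among the peaks of its own list, from near 0 for the lowest to 100 for the highest. A cluster's value is the mean over its regions. Differences are given in percentiles, with the standard error and adjusted p of limma fitted across all 9420 clusters. A change passes where that adjusted p is under 0.05, in a fit that does not pair the replicates, unless stated otherwise.

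The following windows hold the 151 bases around the summit of the region that changed most within 8 clusters, 2 clusters for each direction after 24h of TGF-β and 2 for each direction under ERKi at 24h, and show which DNA stands under the largest changes. The letters are those of the forward strand of NCBIM37 (mm9), and capitals mark matches to consensus motifs that are described with the motif counts.
Arhgef5 cluster, chr6:43197912-43198062: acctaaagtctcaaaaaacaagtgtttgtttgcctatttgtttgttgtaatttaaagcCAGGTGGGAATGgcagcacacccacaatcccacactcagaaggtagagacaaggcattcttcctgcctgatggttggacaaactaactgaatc
1700024P04Rik cluster, chr13:99827605-99827755: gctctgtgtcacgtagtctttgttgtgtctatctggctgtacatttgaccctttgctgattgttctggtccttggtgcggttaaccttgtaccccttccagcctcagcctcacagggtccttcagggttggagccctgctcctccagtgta
Nnmt cluster, chr9:48478118-48478268: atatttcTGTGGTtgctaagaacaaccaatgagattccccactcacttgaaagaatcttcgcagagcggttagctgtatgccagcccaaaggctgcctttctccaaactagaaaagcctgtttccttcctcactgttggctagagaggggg
Ankrd55 cluster, chr13:112868075-112868225: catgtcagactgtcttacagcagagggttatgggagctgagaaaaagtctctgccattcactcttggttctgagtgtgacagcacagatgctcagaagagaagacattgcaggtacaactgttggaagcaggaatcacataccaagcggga
Otub1 cluster, chr19:7253526-7253676: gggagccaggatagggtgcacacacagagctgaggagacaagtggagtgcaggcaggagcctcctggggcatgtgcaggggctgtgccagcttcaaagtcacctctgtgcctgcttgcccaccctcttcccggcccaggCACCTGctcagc
Hsf2bp-1 cluster, chr17:32067160-32067310: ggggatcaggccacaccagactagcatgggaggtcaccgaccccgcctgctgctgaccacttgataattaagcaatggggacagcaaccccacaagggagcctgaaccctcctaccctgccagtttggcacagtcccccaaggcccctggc
Errfi1 cluster, chr4:150183276-150183426: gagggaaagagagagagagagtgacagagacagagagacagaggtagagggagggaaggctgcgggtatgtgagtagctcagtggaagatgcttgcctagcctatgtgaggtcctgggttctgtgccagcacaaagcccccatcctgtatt
Csf2 cluster, chr11:54030505-54030655: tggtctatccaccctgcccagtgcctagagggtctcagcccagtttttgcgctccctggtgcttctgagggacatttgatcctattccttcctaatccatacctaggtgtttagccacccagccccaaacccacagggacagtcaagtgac
The windows of Arhgef5, 1700024P04Rik, Nnmt and Ankrd55 belong to regions that changed by 52.2, 52.4, -43.95 and -69.7 percentiles between 0h and 24h. Those of Otub1, Hsf2bp-1, Errfi1 and Csf2 belong to regions that changed by 49.3, 39.95, -53.7 and -39.4 percentiles between DMSO and ERKi at 24h. The Arhgef5 window held the letters of a TEAD motif beside an E-box, the Nnmt window a RUNX motif and the Otub1 window an E-box. The other 5 windows held none of the 8 motifs within these 151 bases. In the 501 bases used for the motif counts, each of those 5 regions held some. Among them were AP-1 at Errfi1, RUNX at Csf2 and TEAD at 1700024P04Rik, Ankrd55 and Hsf2bp-1.

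The 500 clusters ranged from 5109 to 24378 bp in summed width (median 6468 bp) and from 7104 to 87609 bp in span (median 23697 bp), and contained between 2 and 16 regions (median 4). Together they made up 3.57 Mb of regions in spans of 12.5 Mb, so that the regions covered a median of 28.9% of a span. The widest cluster, at chr2:167572663-167660271, lay 58248 bp from the start site of Cebpb, a bZIP factor of differentiation and inflammation, and joined 16 regions of 24378 bp in all over 87609 bp. It was followed by the cluster overlapping A730020M07Rik with 12 regions and 20764 bp, and by the cluster nearest to Tgif1, a repressor of SMAD-driven transcription, which lay inside the neighbouring gene Dlgap1 with 14 regions and 15988 bp. Next in order were the clusters near Map4k3 (15938 bp), Phlda1 (14866 bp), Gm10384 (13636 bp), Wnt7b (13340 bp), Fam50b (12769 bp), again Gm10384 (12512 bp) and Asprv1 (12464 bp). None of these 10 consisted of 1 broad block, since they held between 7 and 16 regions each. Of the 10, the Tgif1 cluster changed in 2 comparisons that are described with its pathway, and the Map4k3 cluster, near a gene for a stress-activated kinase, went from 82.3, 75.4 and 85.3 at 0h to 64.7, 62.6 and 75.4 at 24h (-13.4 ± 4.96 percentiles, adjusted p = 0.0492). This call was lost without 0h replicate 1, 0h replicate 3, 4h replicate 1, 4h replicate 2, 24h replicate 1, 24h replicate 2, ERKi 4h replicate 1, ERKi 4h replicate 2 or ERKi 24h replicate 1 (adjusted p between 0.0534 and 0.164), and by fold enrichment the difference was 8.26. The other 8 passed in no comparison. Over all 500, the widest region made up a median of 35.1% of a cluster's summed width.

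**Figure D1:**
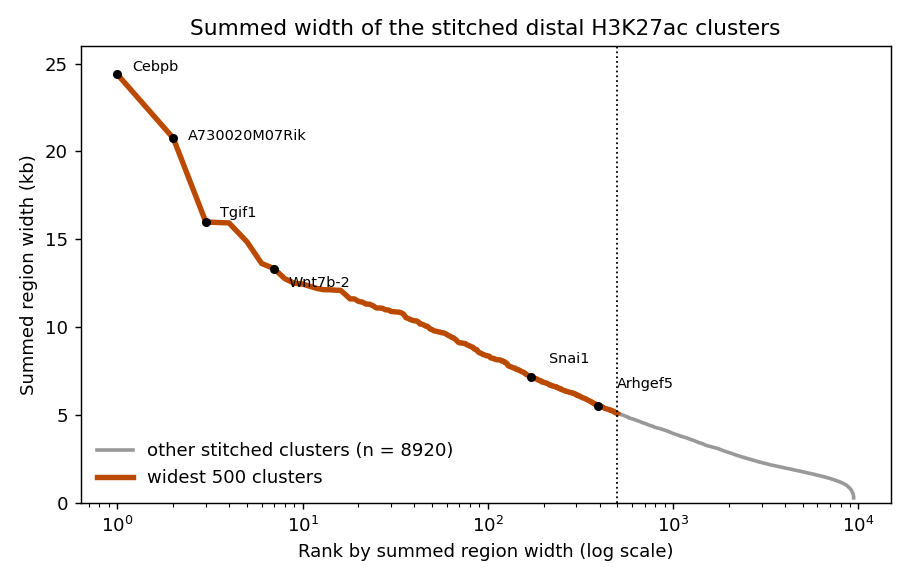
Summed region width in kb (vertical axis) of all 9420 stitched distal clusters against their rank (horizontal axis, log scale), with the 500 selected clusters in orange and the others in grey. The curve falls from 24.4 kb at the Cebpb cluster to 5.11 kb at rank 500, marked by the dotted line, without a step at that rank.

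The clusters lay between 2510 and 1169710 bp from the nearest coding start site (median 18706 bp), against a median of 25825 bp for the other 8920 clusters, and 49 of them (9.80%) were farther than 100 kb, against 17.1% of the others. Of the 500, 181 lay inside a single coding gene, 80 overlapped one in part and 239 overlapped none, and 36 spans contained a coding start site between their regions. By summit, 59.1% of the 2250 regions fell outside coding genes, 38.7% in introns and 2.22% in exons, and the other distal regions called throughout gave 54.3, 42.6 and 3.09%. The clusters named 456 genes, of which 38 were nearest to more than 1 cluster, with up to 3 each, as at Glis3, Ets2, Cited2, Tns3 and 3930402G23Rik. Chromosome 15 carried 44 clusters and chromosome 11 carried 42, whereas the X chromosome carried 1. These positions are descriptions, since wide and closely spaced regions were what the selection asked for.

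The regions of the clusters stood high by pileup and low by fold enrichment. Their mean percentile by pileup had a median of 76.8, against 56.9 in the other distal regions and 79.9 in the regions near start sites. By fold enrichment, their median percentile was 48.7, against 66.8 in the other distal regions and 84.0 near start sites. The pileup at the summit was 101 fragments in the cluster regions, 59.6 in the other distal regions and 108 near start sites (medians over regions of the mean over 15 libraries), while the local background that divides it was 21.96, 9.21 and 13.02 fragments. The fold enrichment was therefore 4.46 in the median cluster region and 5.70 in the median distal region outside the clusters. The mean percentile of the 500 clusters exceeded that of the other 8920 in each of the 15 libraries, by 14.5 to 19.7. These differences were not tested, as a selection by peak width is not independent of peak height. A region held on average 1.33 peaks per library in the median of both kinds of distal region, and the peaks of a library covered 71.8% ± 6.23 (SD, n = 15) of the bases of the cluster regions.

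**Figure D2:**
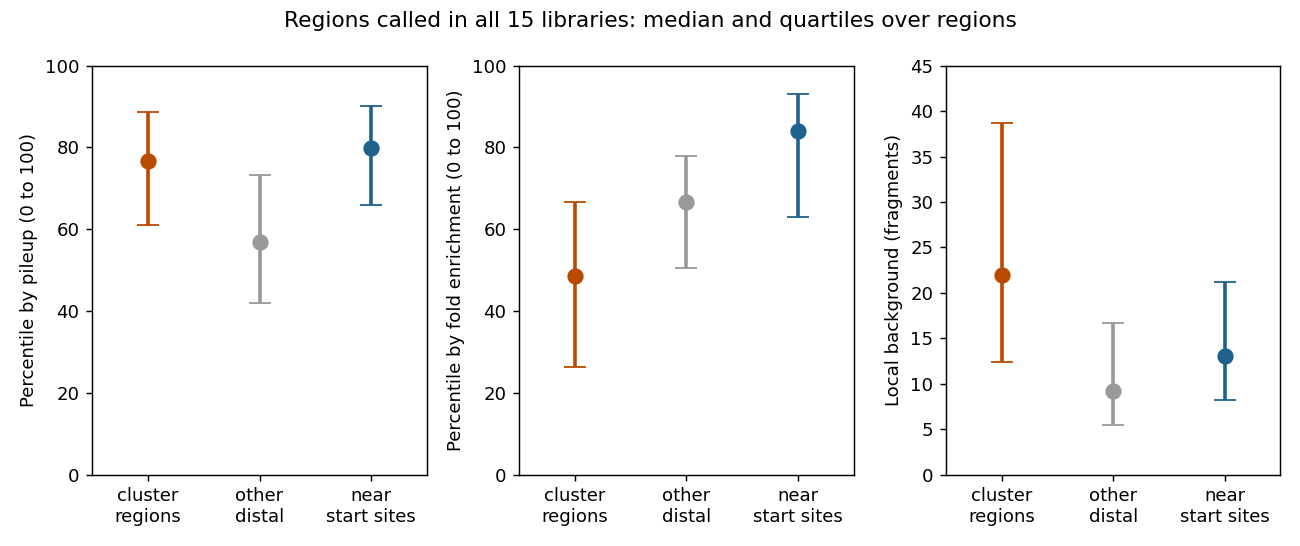
Percentile by pileup, percentile by fold enrichment and local background in fragments (vertical axes) for the 2250 cluster regions, 11992 other distal regions and 12692 regions near start sites, all called in 15 libraries. Points are medians and bars the quartiles over regions, and the cluster regions match the start-site regions by pileup but have the highest background and the lowest percentile by fold enrichment.

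At 0h the 500 clusters had a mean percentile of 70.1 ± 4.11, which was 73.5 ± 5.64 after 4h of TGF-β and 72.7 ± 4.70 after 24h, and under ERKi 73.1 ± 4.57 at 4h and 73.7 ± 5.11 at 24h (SD, n = 3). Single libraries ran from 66.3 to 80.0, so that the conditions overlapped when the replicate numbers were set aside. Libraries with the same number stood high or low together, and within a number each of the 12 libraries with TGF-β stood above its library at 0h, by 0.402 to 5.56 percentiles. Over the other 8920 clusters 9 of the 12 did. The percentile is taken within a list, and most lists with TGF-β were longer than the 0h list of the same number. Replicate 3 had 59658 peaks at 0h and between 64815 and 69180 with TGF-β. Only the list of 4h replicate 1 was shorter, with 50445 peaks against 52221 at 0h. Its mean percentile was 70.9 against 69.5. These levels and the part of list length in them were not tested. Counts from a fit with the replicate number as a block are given beside the main ones.

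The order of the 500 clusters from strong to weak changed with TGF-β. As a description across clusters that share libraries, Spearman's rank correlation was between 0.935 and 0.954 among the libraries at 0h. Between libraries at 0h and those at 4h it had a median of 0.817, and between 0h and 24h a median of 0.646. Libraries at 4h with DMSO and with ERKi had a median of 0.900, and those at 24h a median of 0.814. Between 0h and ERKi at 24h the median was 0.622, close to that between 0h and 24h with DMSO. A small set kept its place. In all 15 libraries, 15 clusters were among the 50 strongest, and 112 were so in at least 1 library. Among the strongest were those near Mdm2, the ubiquitin ligase of p53 (mean percentile 99.9), Glis3 (99.9 and 97.7 at 2 of its 3 clusters), A330021E22Rik (99.4) and Dnmbp (98.4), and the set also contained clusters near the hematopoietic and epithelial factor Runx1 (97.9), the ligand Wnt7b (97.3) and the cytokine feedback inhibitor Socs3 (95.2). Strong here means high by pileup. Local background was high too at those near Mdm2 (505 fragments), Glis3 (348 and 216), A330021E22Rik (95.9) and Wnt7b (99.5), against 21.96 in the median cluster region. By percentile of fold enrichment these stood at 47.4, 27.6, 16.8, 38.2 and 22.1. The part of the background in their steady place was not tested.

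After 4h of TGF-β, 38 of the 500 clusters rose and 0 fell. This is 7.60% of the clusters in the upward direction, against 6.01% of all 9420 clusters tested, and 0% in the downward direction, against 0.329%. The largest rise was at the Arhgef5 cluster (chr6:43195700-43208080, 3 regions, 7563 bp from the start site), near a gene for a guanine nucleotide exchange factor. Its percentile was 43.7, 33.8 and 46.6 in the 3 libraries at 0h and 80.3, 67.6 and 86.7 at 4h, a difference of 36.8 ± 6.18 (SE, adjusted p = 0.0011). All libraries at 4h were above all libraries at 0h. The cluster near 1700024P04Rik (chr13:99825846-99834419, 2 regions, 71326 bp away) stood at 25.5, 34.5 and 33.7 at 0h and at 63.2, 62.9 and 77.3 at 4h, a rise of 36.6 ± 6.64 (adjusted p = 0.00202). At both clusters the groups did not overlap. By percentile of fold enrichment they differed by 14.3 and -11.4.

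The 38 clusters were called on the mean of their 157 regions, and as a description all of these regions were higher at 4h and 77 passed the test by themselves. The pileup of these clusters rose by a median of 0.86 on the log2 scale relative to the median of each list, and the local background by 0.96, so that by fold enrichment 14 of the 38 were higher and 24 lower. Of the clusters that had not passed, 4 were lower at an unadjusted p under 0.05 (limma), a level for which the share of all clusters is not given. With the replicate block 135 clusters were higher and 17 lower, which is 27 and 3.40% against 18.1 and 5.67% of all clusters. Without 0h replicate 1, 23 clusters were higher, and without 0h replicate 2 or without 4h replicate 3, 16 were. Among single regions of the clusters 149 rose and 1 fell by limma over 26934 regions, which is 6.62 and 0.0444% against 3.24 and 0.126% of all these regions. The 26934 include 12692 regions near start sites, and of the 11992 other distal regions 584 rose and 25 fell. With the block 463 cluster regions rose and 58 fell (20.6 and 2.58%, against 10.1 and 2.53%). The 150 calls became 97 without 0h replicate 1, 93 without 0h replicate 2 or 4h replicate 1 and 69 without 4h replicate 3.

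After 24h of TGF-β, 100 clusters were higher than at 0h and 35 were lower. These are 20 and 7% of the 500, against 19.9% higher and 10.6% lower among all 9420 clusters. The same 2 clusters led as at 4h, in a comparison with the same libraries at 0h. The Arhgef5 cluster stood at 88.6, 80.03 and 93.1 at 24h, 45.9 ± 6.18 percentiles above 0h (adjusted p = 5e-05), with a mean pileup of 139 fragments against 40.4 at 0h. The 1700024P04Rik cluster stood at 79.1, 64.7 and 86.7, 45.6 ± 6.64 above 0h (adjusted p = 0.0001). In both, the lowest library at 24h was far above the highest at 0h. The cluster near 4921513I03Rik (chr10:120052578-120074895, 3 regions, 127935 bp away) rose in steps with time, from 50.9, 43.7 and 58.8 at 0h through 73.9, 65.2 and 81.4 at 4h to 89.99, 87.5 and 96.5 at 24h (40.2 ± 6.06 against 0h, adjusted p = 0.000134). It overlapped no coding gene. By percentile of fold enrichment, the 3 clusters differed at 24h by 3.00, -14.9 and -25.9, so that only the Arhgef5 cluster kept its direction. The fall of the 4921513I03Rik cluster by that measure passed the test.

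Among the clusters near genes of EMT, the one near Snai1 rose strongly by pileup, though not by fold enrichment. Snai1, which encodes the repressor Snail of E-cadherin, lay 31713 bp from a cluster of 5 regions at chr2:167395408-167414939. Its percentile was 63.5, 60.98 and 64.3 at 0h, 81.3, 79.8 and 84.7 at 4h and 87.3, 83.2 and 90.8 at 24h, so that the groups with TGF-β lay above 0h without overlap (19.05 ± 3.8 at 4h, adjusted p = 0.00448, and 24.2 ± 3.8 at 24h, adjusted p = 0.00019). Along the cluster, 4 of the 5 regions passed the test at 24h, with differences from 19.98 to 40.7 percentiles, and the outermost, at 4.53, did not. The mean pileup went from 69.5 to 167 fragments and the local background from 14.3 to 47.9. By percentile of fold enrichment the difference at 24h was -20.9 and passed as a fall (limma, adjusted p = 0.0128). By percentile of −log10 p it was 10.8 and did not pass (limma, adjusted p = 0.0856). The Cebpb cluster itself stood at 82.9, 85.1 and 89.7 at 0h and 84.3, 86.1 and 91.2 at 24h (1.29 ± 3.12, adjusted p = 0.8), and its groups overlapped.

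Of the 35 clusters that were lower at 24h, the one near Nnmt, a methyltransferase for nicotinamide, fell farthest. It lay inside Zbtb16, the gene of the zinc finger repressor PLZF, at chr9:48469780-48484204 with 3 regions. Its percentile was 74.03, 60.6 and 76.3 at 0h, 69.8, 65.3 and 81.1 at 4h and 25.2, 38.00 and 43.6 at 24h (-34.7 ± 6.86 at 24h, adjusted p = 0.00119). At 4h the difference was 1.75 ± 6.86 and did not pass (adjusted p = 0.93), and at 24h all 3 libraries were below all those at 0h. The cluster near Ankrd55 (chr13:112860553-112892087, 4 regions, 186572 bp away) stood at 70.8, 55.7 and 70.3 at 0h and 24.8, 30.05 and 40.3 at 24h (-33.9 ± 6.91, adjusted p = 0.00149). The cluster inside Clic5, a chloride channel protein linked to the cortical cytoskeleton, stood at 67.6, 65.7 and 80.5 and 30.2, 46.4 and 42.3 (-31.7 ± 6.26, adjusted p = 0.00118). By pileup, the Nnmt, Ankrd55 and Clic5 clusters went from 87.4, 84.2 and 104 fragments at 0h to 32.8, 33.2 and 45.3 at 24h. Their background fell with it, and the percentile by fold enrichment changed by 20.2, 0.451 and -1.69. The rise at Nnmt by that measure passed the test. With ERKi at 24h the Nnmt cluster had a mean pileup of 67.8 fragments and was called 23.1 percentiles above DMSO (by fold enrichment -4.99). That call was lost without 0h replicate 1, 24h replicate 1 or 2, ERKi 4h replicate 1 or any ERKi 24h replicate (adjusted p between 0.0510 and 0.161).

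The local background moved with the pileup at every called cluster. For the 100 clusters higher at 24h, the pileup rose by a median of 0.82 (log2, relative to the median of the list) and the background by 1.00, and for the 35 lower clusters they fell by 0.82 and by 0.96. The background moved in the direction of the pileup in 100 of 100 and 35 of 35 of them. By fold enrichment, 34 of the 100 were then higher at 24h and 66 lower, of which 20 passed the test in that direction, and of the 35 lower clusters 8 were lower and 27 higher, of which 6 passed. By percentile of pileup minus local background, 100 of 100 and 35 of 35 kept the direction, and of the 500 clusters 86 were higher and 24 lower by that measure. Which control the background was computed from is not given in the sources used here. The rises and falls described here are therefore those of the pileup, also after its background is subtracted, while its ratio to the background went the other way in most of these clusters.

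With the replicate block, 191 clusters were higher at 24h and 107 lower, or 38.2 and 21.4%, against 30.3 and 21.6% of all clusters. Without 24h replicate 3, 66 clusters were higher. Without 0h replicate 1, 0h replicate 3 or 24h replicate 1, 17, 16 and 12 clusters were lower.

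**Figure D3:**
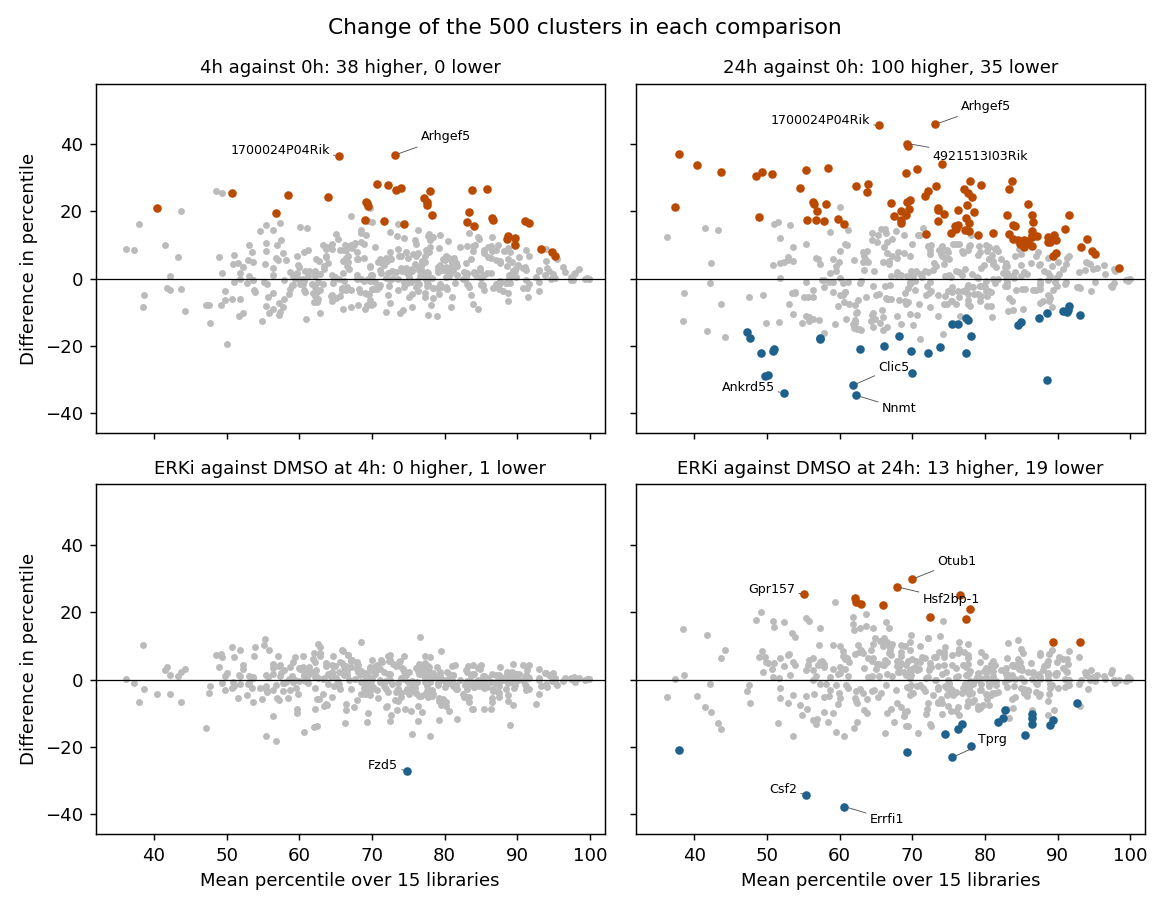
Difference in mean percentile by pileup (vertical axes) against the mean percentile over 15 libraries (horizontal axes) of the 500 clusters in each of the 4 comparisons, with the clusters that passed the test higher in orange and lower in blue and up to 3 named in each direction. Rises prevail at 4h and 24h of TGF-β, 1 cluster stands out under ERKi at 4h, and differences narrow toward 100 where the scale ends.

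Some clusters changed in parts. The clusters were called on the mean of their regions, so that the direction of these regions is in large part set by the call and is given as a description. Of the 428 regions in the 100 clusters that were higher at 24h, 412 had a positive difference, 248 passed the test upward and 0 downward, and of the 135 regions in the 35 lower clusters 130 had a negative difference, 59 passed downward and 0 upward. All regions passed in 12 of the 100 and 2 of the 35 clusters. In all, 376 regions of the 500 clusters were higher at 24h and 144 lower, which is 16.7 and 6.40% against 10.3 and 5.28% of the 26934 regions. The 26934 include 12692 regions near start sites, which are unlike the distal cluster regions. Of the 11992 other distal regions, 1984 were higher and 1016 lower. With the block 672 and 442 regions of the 500 clusters were called (29.9 and 19.6%, against 17.8 and 13.4%). The sum of 520 without the block became 343 without 0h replicate 1 and 328 without 24h replicate 1. Counts of clusters with called regions depend on how many regions a cluster holds. As 73.4% of the other clusters hold 1, no share of those is set beside the next counts. At least 1 region passed in 289 clusters, and 16 clusters contained regions that passed in opposite directions. Among these 16, singled out after their values were seen, were clusters near D15Ertd621e, Tomm20, Ank, Fmnl2, Mettl7b, Clmn, Plin2, Umps, Mtif3, Ptpn14, Bre, Samd4, Gm12824, Tacc1 and Wdr11. None of the 16 passed the test as a whole. In the Mettl7b cluster, for instance, 1 of 7 regions rose and 3 fell, with a difference of -5.06 ± 3.65 over the cluster (adjusted p = 0.324). In the Ankrd55 cluster, the second of 4 regions went from 80.1 to 10.5 percentiles and the others changed by between -14.3 and -34.9.

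**Figure D4:**
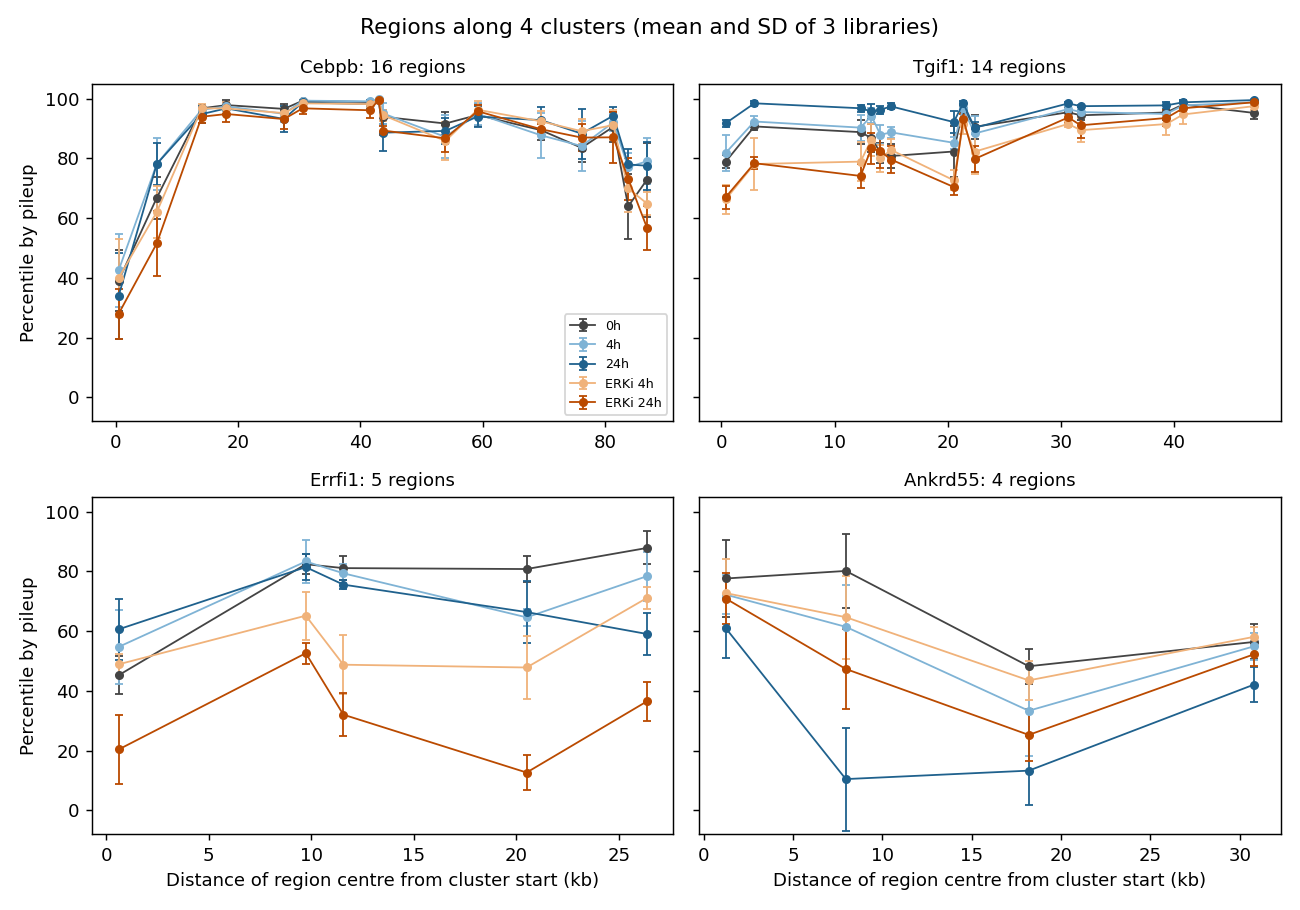
Percentile by pileup (vertical axes) of the regions of the Cebpb, Tgif1, Errfi1 and Ankrd55 clusters against their distance from the start of the cluster in kb (horizontal axes), with points and bars giving the mean and SD of 3 libraries in each of the 5 conditions. The means of the Cebpb regions differ by over 10 percentiles between conditions only at the ends of the cluster, the Tgif1 regions separate on the left side of the cluster, all 5 Errfi1 regions are lowest under ERKi at 24h, and the 2 inner Ankrd55 regions stand at 10.5 and 13.3 percentiles at 24h.

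ERK inhibition changed few of the clusters at 4h. Of the 500, 1 was lower with ERKi than with DMSO and 0 were higher (limma). These are 0.200% and 0%, against 0.467% lower and 0.0106% higher among all clusters. At an unadjusted p under 0.05, 24 were lower and 1 higher. The share of all clusters at that level is not given, so these counts are no result about the 500. The cluster that fell was nearest to Fzd5, a receptor for WNT ligands, and lay inside Plekhm3 (chr1:64833456-64856760, 3 regions). Its percentile was 80.02, 82.6 and 90.5 with DMSO and 46.9, 63.3 and 61.4 with ERKi (-27.2 ± 5.44, adjusted p = 0.0277), without overlap. Of its 3 regions the middle one passed by itself, from 80.5 with DMSO to 31.6 with ERKi, while the first stood at 90.7 and 86.9 and the last at 81.9 and 53.2 without passing. The difference was -4.36 by fold enrichment, and with the highest region as the cluster value -3.88, neither of which passed. The call was lost without the mean-variance trend (adjusted p = 0.056) and without 4h replicate 1 (adjusted p = 0.0671), 4h replicate 2 (adjusted p = 0.0924), 4h replicate 3 (adjusted p = 0.192) or ERKi 4h replicate 1 (adjusted p = 0.209), and 2 clusters were lower without 0h replicate 3 or without ERKi 4h replicate 3. With the replicate block 27 clusters were lower and 3 higher (5.40 and 0.600%, against 4.47 and 1.36% of all clusters). Of the single regions, 10 fell and 0 rose by limma, or 0.444 and 0%, against 0.189 and 0.00371% of all regions. At an unadjusted p under 0.05 by limma, 153 were lower and 28 higher, and the share of all regions at that level is not given. Of the 11992 other distal regions, 38 fell. With the block 90 cluster regions fell and 6 rose (4 and 0.267%, against 1.65 and 0.342%). The shares of all regions, with and without the block, include the 12692 regions near start sites, which are unlike the distal cluster regions. The 10 regions became 5 without 0h replicate 1, 4 without 0h replicate 2, 1 without 4h replicate 2 or ERKi 4h replicate 1, 6 without ERKi 4h replicate 3 and 0 without 4h replicate 1 or 4h replicate 3.

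At 24h, 13 clusters were higher with ERKi than with DMSO and 19 were lower, which is 2.60 and 3.80% of the 500 against 6.51 and 4.56% of all clusters. The largest rise was at the cluster near Otub1, a deubiquitinase, inside Macrod1 (chr19:7239451-7268122, 3 regions). Its percentile was 43.1, 48.4 and 50.6 at 24h with DMSO and 76.3, 76.7 and 78.4 with ERKi (29.8 ± 4.28, adjusted p = 0.000692). The values with ERKi were close to the 77.7, 74.7 and 73.4 of 0h, and the cluster was among those lower at 24h than at 0h (-27.9 ± 4.28, adjusted p = 0.000154). The comparisons share the libraries at 24h. The 2 differences by fold enrichment were 22.7 and -9.83. The cluster near Hsf2bp (chr17:32066471-32077515, 2 regions) stood at 47.05, 60.7 and 72.8 with DMSO and 84.9, 85.00 and 93.3 with ERKi (27.5 ± 6.2, adjusted p = 0.00977), and the cluster near Gpr157, an orphan receptor, at 42.1, 45.2 and 48.3 and 66.8, 68.6 and 76.1 (25.3 ± 5.2, adjusted p = 0.00567). By fold enrichment these 2 clusters differed by 3.08 and 2.63 and did not pass, and with the highest region as the value the Gpr157 cluster differed by 11.6 (adjusted p = 0.235). Unlike at Otub1, the differences between 0h and 24h did not pass at these clusters (1.93, adjusted p = 0.853, and -5.44, adjusted p = 0.471), though this contrast between clusters was not tested.

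The deepest fall under ERKi was at the cluster of 5 regions near Errfi1 (chr4:150162787-150190161, 37867 bp away), whose product is a feedback inhibitor of the EGF receptor. Its percentile was 72.4, 74.8 and 79.2 at 0h, 63.4, 69.5 and 72.9 at 24h with DMSO and 31.9, 26.9 and 33.7 with ERKi (-37.8 ± 5.43 against DMSO, adjusted p = 0.000692). Between 0h and 24h with DMSO the difference was -6.87 ± 5.43 (adjusted p = 0.372), and all libraries with ERKi lay below all those at 0h and at 24h with DMSO. All 5 regions passed the test downward under ERKi, by 22.5 to 53.7 percentiles, and the mean pileup was 77.7 fragments with DMSO and 30 with ERKi. By percentile of fold enrichment the difference was -16.8, in the same direction. At 4h, the difference between ERKi and DMSO was -15.7 ± 5.43 (adjusted p = 0.371, 0.0139 with the block).

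The cluster near Csf2, the gene of the cytokine GM-CSF (chr11:54027331-54038817, 3 regions), had risen with TGF-β from 40.3, 43.97 and 54.8 at 0h to 76.1, 73.6 and 85.95 at 24h, and stood at 49.2, 37.5 and 46.2 with ERKi at 24h. It was thus 32.2 percentiles higher at 24h than at 0h (adjusted p = 0.00128) and changed by -34.3 with ERKi (adjusted p = 0.00333), 2 comparisons that share the libraries at 24h. The values with ERKi fell within the range of those at 0h, apart from the lowest. By fold enrichment, the 2 differences were -4.72 and 6.96. The cluster overlapping Tprg was lower with ERKi as well, 49.8, 57.95 and 58.95 against 70.7, 78.8 and 86.7 (-23.2 ± 4.9, adjusted p = 0.00698), and at 24h with DMSO it was already below 0h, where it had stood at 93.8, 88.9 and 93.7 (-13.4 ± 4.9, adjusted p = 0.0469). The latter call was lost without 0h replicate 1, 0h replicate 2, 0h replicate 3, 4h replicate 1, 24h replicate 1, 24h replicate 2 or ERKi 4h replicate 1 (adjusted p between 0.0563 and 0.215). By fold enrichment, the 2 differences were 7.73 and 19.1, and the second passed as a rise. The 4921513I03Rik cluster, among the leading rises at 24h, stood at 70.8, 60.9 and 77.5 with ERKi (-21.6 ± 6.06, adjusted p = 0.0298), whereas the Arhgef5 cluster stood at 88.6, 80.8 and 91.8 and differed from DMSO by -0.224 ± 6.18 (adjusted p = 0.988). The former call was lost without 24h replicate 1, 24h replicate 2, 24h replicate 3, ERKi 24h replicate 1 or ERKi 24h replicate 2 (adjusted p between 0.0502 and 0.105). By fold enrichment that difference was 19.6 and passed as a rise. The 4921513I03Rik libraries with ERKi lay between those of 0h and of 24h with DMSO, and the Arhgef5 libraries with ERKi overlapped those with DMSO.

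**Figure D5:**
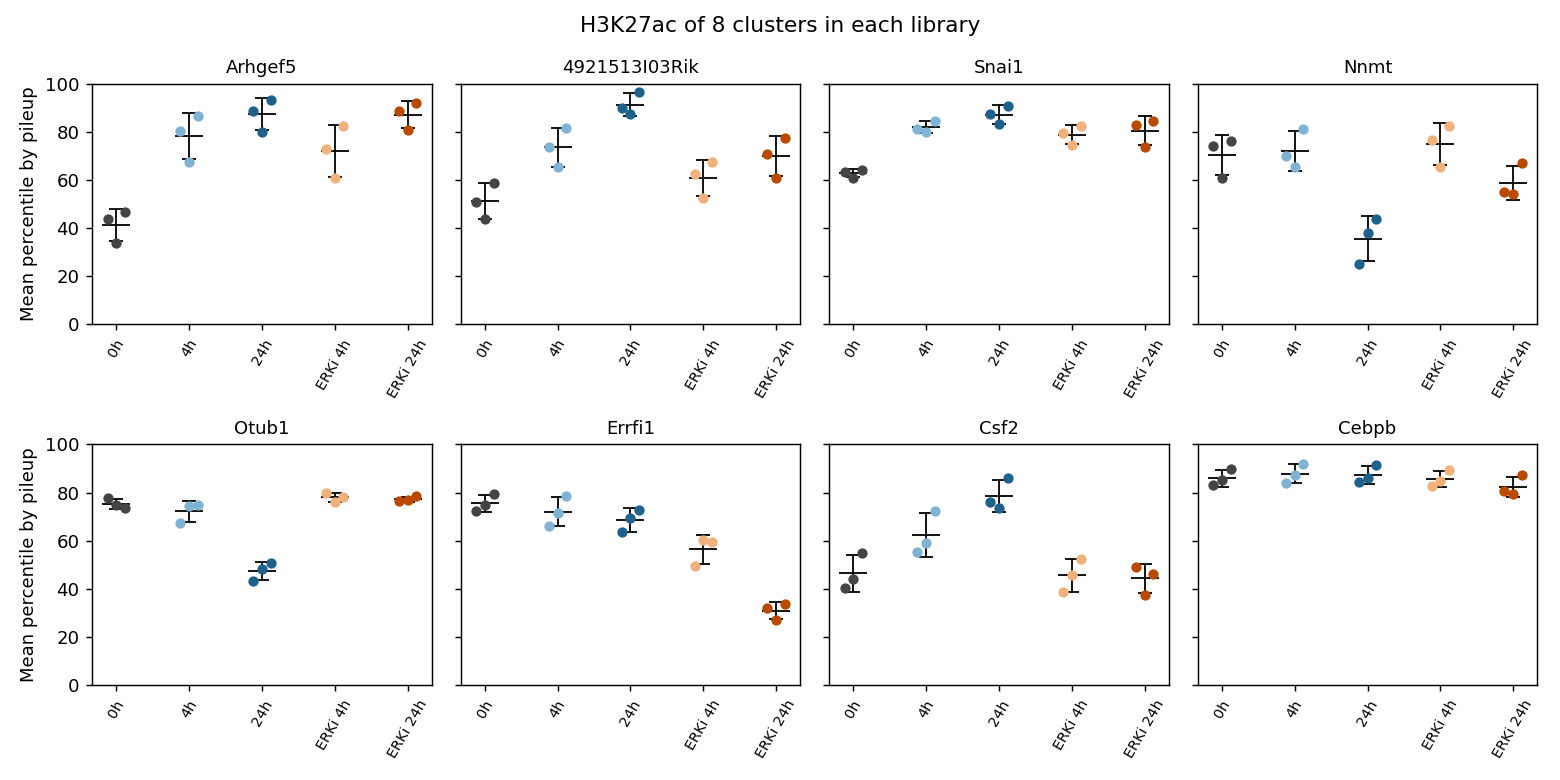
Mean percentile by pileup (vertical axes, 0 to 100) of 8 clusters in each of the 15 libraries by condition (horizontal axes), with coloured points for libraries and black lines for the mean and SD of 3. The Arhgef5 cluster is near 87 percentiles at 24h with and without ERKi, the 4921513I03Rik, Nnmt, Otub1 and Csf2 clusters stand between 0h and 24h or at 0h levels under ERKi at 24h, and the Errfi1 cluster stands near 31.

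With the block, 94 clusters were higher and 82 lower under ERKi at 24h (18.8 and 16.4%, against 20.9 and 13.7% of all clusters). Without 24h replicate 1, ERKi 24h replicate 1 or ERKi 24h replicate 3, 4, 7 and 4 clusters were higher, and without 24h replicate 3, 21. The 19 lower clusters became 11, 12 and 9 without 24h replicate 1, 2 or 3 and 8 and 10 without ERKi 24h replicate 1 or 2. Of the single regions, 55 were higher and 78 lower, or 2.44 and 3.47% against 2.79 and 2.41% of all regions. Of the 11992 other distal regions, 529 were higher and 412 lower. With the block 344 cluster regions were higher and 289 lower (15.3 and 12.8%, against 12.9 and 8.57%). The shares of all regions, with and without the block, include the 12692 regions near start sites. Those are unlike the distal cluster regions, so these shares show no excess over other distal regions. The sum of 133 became 66 and 88 without 24h replicate 1 or 2 and 72, 84 and 78 without ERKi 24h replicate 1, 2 or 3. The effect of ERKi differed between 24h and 4h at 0 of the 500 clusters and at 1 of the 9420 (0.0106%) by limma. At an unadjusted p under 0.05, 8 of the 500 differed, and the share of all clusters at that level is not given. With the block and adjustment also 8 differed (1.60%, against 2.96% of all clusters). A difference in the ERKi effect between the times was thus not shown for most clusters called at 24h.

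Comparisons without common libraries could be set beside each other. Of the 100 clusters that were higher at 24h than at 0h, 68 had a lower value with ERKi than with DMSO at 4h, with a median difference of -1.59 percentiles, against -0.0202 over the 500. Outside the 500, 1076 of the 1779 clusters higher at 24h had a lower value (median -1.45, against 0.657 over the other 8920). Of the 35 lower clusters, 27 had a higher value with ERKi at 4h, with a median of 1.96, as had 670 of 959 elsewhere, with a median of 3.50. The median standard error of a cluster's difference was 5.05. In the other pairing, the 38 clusters higher at 4h had a median difference of 0.0296 between ERKi and DMSO at 24h, against 1.02 over the 500. Of these 38, 20 were above 0 and 18 below. The 528 others had a median of 0.292, against 1.73 over the other 8920, with 274 above 0. These shifts were not tested.

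The clusters were also grouped by what the nearest gene does. The counts of every list below stand beside the shares of all 9420 clusters, against which no list was tested. At 24h 19.9% of these were higher and 10.6% lower, and at 4h 6.01% were higher and 0.329% lower. With ERKi at 24h 6.51% were higher and 4.56% lower. Of 41 genes of the TGF-β and BMP pathway in the annotation, 5 were nearest to a cluster. The receptor gene Acvr1, which encodes a type I receptor for BMPs and activins, carries a cluster of 4 regions within its own body. It stood at 74.7, 72.7 and 72.3 at 0h, 90.9, 87.3 and 93.7 at 4h and 92.6, 83.7 and 93.7 at 24h (17.4 ± 3.01 at 4h, adjusted p = 0.00144, and 16.7 ± 3.01 at 24h, adjusted p = 0.000564), and at 91.5, 89.7 and 94.4 with ERKi at 24h, above 0h in every library with TGF-β. By fold enrichment its differences at 4h and 24h were -5.08 and -10.4, and the second passed as a fall. The Tgif1 cluster stood at 88.1, 88.7 and 92.3 at 0h, 96.2, 95.9 and 97.02 at 24h and 85.4, 81.8 and 86.1 with ERKi at 24h, that is 6.67 ± 2.21 with TGF-β (adjusted p = 0.0294) and -11.9 ± 2.21 with ERKi (adjusted p = 0.00307). Its change with ERKi was largest at the left of the cluster, where the first 3 regions differed by -24.8, -20.05 and -22.7 percentiles and passed, and was -0.738 in the last. By fold enrichment, the 2 differences were -13.4 and 17.1, and both passed in these opposite directions. The first call by pileup was lost without 0h replicate 1 (adjusted p = 0.106), 0h replicate 2 (adjusted p = 0.0892), 24h replicate 1 (adjusted p = 0.0738), 24h replicate 2 (adjusted p = 0.0515) or 24h replicate 3 (adjusted p = 0.079).

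The cluster near Smad7, the inhibitory SMAD, lay inside Ctif and stood at 87.6, 84.9 and 92.8 at 24h with DMSO and 70, 62.6 and 73.3 with ERKi (-19.8 ± 4.81, adjusted p = 0.0144). The call was lost without ERKi 24h replicate 2 (adjusted p = 0.0532). The difference by fold enrichment was 8.73. Against 0h, where it stood at 71.5, 70.1 and 84.9, it differed by 12.9 ± 4.81 at 24h and just missed the threshold (adjusted p = 0.0504). The clusters near the corepressor Ski and the ligand gene Tgfb2 passed in no comparison, with 8.01 and -13.3 percentiles at 24h. In all, 1 of these 5 clusters was higher at 4h, 2 were higher at 24h and 2 lower with ERKi at 24h, and the median difference was 8.01 at 24h against 0h and -0.112 with ERKi at 24h, against 1.74 and 1.02 over the 500. Over all 88 stitched clusters of this list, 13 were higher and 1 lower at 4h, and 21 were higher and 8 lower at 24h. With ERKi at 24h, 3 of the 88 were higher and 4 lower.

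Of 24 EMT and plasticity factors, 8 were nearest to 12 clusters, of which 4 were higher at 24h and 0 lower (26 and 4 over all 100 stitched clusters of the list). Besides Snai1, these were both clusters near Foxq1, a forkhead factor, which stood at 20.8 ± 3.52 and 41.9 ± 8.41 at 0h and at 51.5 ± 11.5 and 70.1 ± 9.64 at 24h (SD, n = 3, differences 30.7 and 28.2, adjusted p = 0.00612 and 0.00293). With ERKi at 24h they stood at 69.3 ± 9.31 and 76.6 ± 4.58, no lower than with DMSO. Their differences at 24h by fold enrichment were 11.3 and 2.47. At 4h the second of them, 66.2 ± 8.93, had passed as well (adjusted p = 0.0264), a call lost without 0h replicate 2 (adjusted p = 0.138), 0h replicate 3 (adjusted p = 0.0751), 4h replicate 1 (adjusted p = 0.0705) or 4h replicate 3 (adjusted p = 0.135). A cluster 275107 bp from Sox9, a factor of progenitor and plastic epithelial cells, stood at 68.9 ± 4.76 at 0h and 83.2 ± 4.4 at 24h (14.3, adjusted p = 0.0231), and by fold enrichment its difference was -8.5. That call was lost without 0h replicate 1 (adjusted p = 0.0945), 0h replicate 2 (adjusted p = 0.0588) or 24h replicate 3 (adjusted p = 0.0946). A cluster inside Vti1a and nearest to Tcf7l2, a factor of WNT signalling, was higher with ERKi at 24h, 83.97 ± 5.55 against 62.9 ± 6.84 with DMSO (21.1, adjusted p = 0.0133, by fold enrichment -2.96), and lost the call without 24h replicate 1 (adjusted p = 0.0605) or ERKi 24h replicate 3 (adjusted p = 0.0626). Clusters near Klf6, Hes1, Notch2, Klf5 and the remaining ones near Tcf7l2 and Sox9 passed in no comparison.

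Of 56 genes of the ERK pathway, AP-1 and ETS list, 12 were nearest to 15 clusters, which makes it the list with the most clusters, and 2 of the 15 were higher at 24h, 1 lower, and 1 lower with ERKi at 24h. Over all 122 stitched clusters of the list 35 were higher at 24h and 8 lower, and with ERKi at 24h 3 were higher and 11 lower. The risers were near Ier3, an immediate early gene (77.03 ± 4.59 at 0h and 93.00 ± 6.4 at 24h, adjusted p = 0.00539), and near Fosb, an AP-1 subunit (57.8 ± 2.7 and 74.3 ± 6.36, adjusted p = 0.0204). By fold enrichment the Ier3 cluster differed by -3.98 and the Fosb cluster by 0.0574, and the Fosb call was lost without 0h replicate 1 (adjusted p = 0.0742) or 24h replicate 3 (adjusted p = 0.0958). The cluster near Dusp6, a phosphatase that inactivates ERK, went from 59.8, 58.2 and 62.6 at 0h to 40.4, 42.03 and 50.96 at 24h (-15.7 ± 5.78, adjusted p = 0.0482), and this call was lost without 0h replicate 1, 0h replicate 2, 0h replicate 3, 4h replicate 1, 4h replicate 2, 24h replicate 1, 24h replicate 2, ERKi 4h replicate 1, ERKi 4h replicate 2, ERKi 4h replicate 3 or ERKi 24h replicate 1 (adjusted p between 0.0532 and 0.148). By fold enrichment it differed by -6.39. With ERKi, the Dusp6 cluster stood at 35.6, 38.1 and 40.2 at 4h against 47.7, 49.4 and 60.2 with DMSO, which did not pass (adjusted p = 0.533, 0.0395 with the block) although the groups did not overlap. Without the block, the Errfi1 cluster was the only one of the 15 that passed under ERKi. Clusters near Phlda1, Myc, Egfr, Met, Epha2, Maff, Runx1 and Ets2 and a further one near Ier3 passed in no comparison without the block, and their values at 24h differed from 0h by -7.58 at Maff to 7.97 at 1 of the Ets2 clusters.

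Of 48 mesenchymal, matrix and cytoskeletal genes, 8 were nearest to 11 clusters, of which 2 were higher at 24h and 0 lower (21 and 3 over all 75 stitched clusters of the list). The cluster near Tnc, the matrix protein tenascin C, rose from 52.1, 44.6 and 62.6 at 0h to 80.5, 70.98 and 85.3 at 24h (25.8 ± 6.89, adjusted p = 0.00915). By fold enrichment the Tnc cluster differed by -15.7, which passed as a fall. The cluster inside Lamb1, a laminin chain of the basement membrane, rose from 30.6, 21.9 and 29.2 to 58.4, 54.1 and 63.9 (31.6 ± 6.48, adjusted p = 0.00154, by fold enrichment 9.91). No library at 0h reached the level of one at 24h in either cluster. The cluster near the integrin subunit Itga3 did not pass at 24h against 0h (-2.98, adjusted p = 0.595) and fell with ERKi at 24h from 87.04, 89.6 and 93.7 to 67.4, 73.3 and 79.9 (-16.6 ± 3.71, adjusted p = 0.00948, by fold enrichment 2.26). The 2 clusters near Itgb6 and those near Itgb4, Thbs1 and Tpm1 passed in no comparison. The median difference at 24h over the 11 was 4.83 percentiles.

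Of 40 genes of epithelial junctions and identity, 4 were nearest to a cluster, and 2 of these clusters were lower at 24h and 0 higher. Over all 52 stitched clusters of the list, 7 were lower and 9 higher at 24h. The cluster near Tjp1, the tight junction protein ZO-1, went from 94.5, 89.7 and 94.2 to 79.8, 82.2 and 85.8 (-10.2 ± 2.63, adjusted p = 0.00741). The cluster near Ehf, an epithelial ETS factor, went from 61.97, 47.8 and 59.6 to 32.8, 29.02 and 43.00 (-21.5 ± 6.39, adjusted p = 0.0168), and was lost as a call without 0h replicate 1 (adjusted p = 0.0735), 0h replicate 3 (adjusted p = 0.0595), 24h replicate 1 (adjusted p = 0.0553) or 24h replicate 2 (adjusted p = 0.0606). By fold enrichment they differed by 2.91 and 2.12. With ERKi at 24h, the Ehf cluster stood at 54.2, 42.8 and 59.6, which did not pass against DMSO (adjusted p = 0.0922, 0.00299 with the block). The clusters near Grhl2, an epithelial transcription factor, and inside Shroom3, an actin regulator of apical constriction, passed in no comparison (5.29 and -16.3 at 24h). The median differences of the 4 were -13.3 at 24h and 12.6 with ERKi at 24h, over clusters too few to compare with the rest.

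Of 17 genes of the YAP-TEAD list in the annotation, 4 were nearest to 6 clusters, of which 2 were higher at 24h and 0 lower (7 and 2 over all 33 stitched clusters of the list). The cluster overlapping Nuak2, a stress kinase gene, stood at 68.8, 69.1 and 78.04 at 0h, 86.3, 82.9 and 93.4 at 4h and 87.9, 81.7 and 93.5 at 24h (15.5, adjusted p = 0.0252, and 15.7, adjusted p = 0.00684). By fold enrichment it differed by -4.06 and -8.28, and the second passed as a fall. The call at 4h was lost without 0h replicate 1 (adjusted p = 0.107), 0h replicate 2 (adjusted p = 0.116), 4h replicate 1 (adjusted p = 0.0605) or 4h replicate 3 (adjusted p = 0.137). A cluster 115906 bp from Ctgf, a matrix-associated growth factor gene, rose from 42.6, 35.5 and 46.4 at 0h to 58.3, 59.5 and 75.1 at 24h (22.8 ± 6.9, adjusted p = 0.0187, by fold enrichment 2.52), a call lost without 0h replicate 2 (adjusted p = 0.0751) or 24h replicate 3 (adjusted p = 0.0917), and the one 4315 bp from it was at 14.7 (adjusted p = 0.066). With ERKi at 24h these clusters differed from DMSO by 0.126, 2.94 and -3.89. The clusters near Cyr61 and Amotl2 passed in no comparison.

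The summits of the cluster regions held most motifs at shares near those of other distal regions, while the FOX and AP-1 letters were less frequent in them. The differences between these groups were not tested. The motifs were searched as exact letters on both strands in 501 bases around the highest summit of a region, and matches to different motifs may overlap. The AP-1 letters TGANTCA were in 23.2% of the 2250 cluster regions, 25.7% of the 11992 other distal regions, 8.08% of the 12692 regions near start sites and 23.2% of all 89050 regions. The RUNX letters TGTGGT were in 34.3, 34.3, 18.4 and 32.9%, the TEAD letters GGAATG in 28.5, 29.2, 18.5 and 26.9%, and the E-box letters CACCTG in 32.2, 30.2, 33.1 and 31.5%. The GRHL letters AACCNGTT were in 4.00, 3.59, 2.80 and 3.57%, and the FOX letters TGTTTAC in 6.40, 8.91, 3.58 and 7.70%. The motifs of start sites were scarce in the clusters, as the KLF and SP letters GGGCGG were in 11.2% and 12.7% of the distal groups and 66.6% near start sites, with 18% of all regions, and the ETS letters CCGGAAG in 3.42, 3.71, 17.1 and 4.76%. The GC content was 48.9% in the cluster regions, 47.9% in other distal regions and 61.8% near start sites. A match to letters is a description and not a site that a factor binds.

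With several regions each, most clusters nevertheless held some of these motifs. At least 1 region had the AP-1 letters in 323 of the 500 clusters, the RUNX letters in 408, the TEAD letters in 377 and the E-box letters in 381. Among regions that changed, the AP-1 letters were in 24.7% of the 376 cluster regions higher at 24h and in 15.3% of the 144 lower, and in the other distal regions in 33.0% of 1984 higher and 17.7% of 1016 lower. With ERKi at 24h, they were in 32.1% of the 78 lower cluster regions and in 20% of the 55 higher, and elsewhere in 31.3% of 412 and 20.6% of 529. The RUNX letters were in 46.2% of the 78 regions lower with ERKi and 30.9% of the 55 higher, and elsewhere in 35.7 and 32.7%. At 24h against 0h, they were in 35.6% of the 376 higher cluster regions and 40.3% of the 144 lower, and elsewhere in 35.8 and 34.3%. These shares were not tested, and regions of 1 cluster share their surroundings.

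Within the spans of the 500 clusters lay 1129 further regions that are not among the 2250, of which 1099 were called in some of the libraries only and 30 were called in all but lay near a start site. Here peaks could appear and disappear. At 24h, 73 of the 1129 were called in all 3 libraries and in none at 0h, and 31 the other way round, or 6.47 and 2.75%, against 4.91 and 2.07% of all 89050 regions. The 89050 include 26934 regions called in all 15 libraries, which can be neither gained nor lost, whereas only 30 of the 1129 are such regions. The shares of all regions are lowered by this, so these shares cannot be compared directly in any of the comparisons. At 4h, 33 were gained and 7 lost (2.92 and 0.620%, against 1.15 and 0.396%). With ERKi in place of DMSO, 3 were gained and 8 lost at 4h (0.266 and 0.709%, against 0.221 and 0.314% of all regions), and 16 were gained and 24 lost at 24h (1.42 and 2.13%, against 1.49 and 1.21%). Single libraries had between 339 and 628 peaks in these intervening stretches.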

How the data were processed

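H3K27ac ChIP-seq peak lists of 15 libraries, 3 for each of 5 conditions, were used, and 10 RNA-seq and 3 input samples were not analysed here. The authors used Bowtie for alignment to the mm9 genome, and ran MACS2 with default parameters on every library by itself. The deposited lists give, per peak, the fold enrichment over local background (a ratio), −log10 p and −log10 q, without normalization between libraries. They hold no read totals, so depth is unknown and no counting interval was computed.

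Pileup and background were solved from the Poisson −log10 p and the fold, whose numerator and denominator each have 1 added, and missed the deposited values by over 0.005 in 25 of 893719 peaks. Genes, start sites and sequence were taken from GENCODE vM1 and NCBIM37, within whose chromosomes all regions ended. Clusters were tested with limma 3.58.1 in R 4.3.3 (5 group means, mean-variance trend, Benjamini-Hochberg adjustment over 9420 clusters or 26934 regions, threshold 0.05), two-sided. Merging, stitching and figures were done in Python 3.11.15 (pandas 2.3.3, NumPy 2.4.6, matplotlib 3.10.9, SciPy 1.17.1). Scripts were tested on simulated data. Of 200 simulated clusters given a shift of 25 percentiles at 24h, 55% were found. A cluster that passed in no comparison may therefore still have changed.

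Named were the 10 widest clusters, in each comparison up to 3 called clusters with the largest rise and 3 with the largest fall, and called clusters nearest to a gene of 6 lists, others being named where singled out. A few clusters that entered the counts are not reported by name here. The members and lists were chosen with earlier results of these data known. The labels give the same replicate numbers in all conditions. Deviations of the 9420 clusters from their condition means correlated at over 0.1 in 30 of 30 pairs of libraries with the same number (mean r 0.429) and in 0 of 60 pairs with different numbers (mean r -0.213). The 3 deviations of a condition sum to 0, so the second mean largely follows from the first and is no separate evidence. From the pairs with the same number, the numbers were taken to pair the libraries, and a fit with the number as a block was an alternative. Other alternatives were other measures of a peak, the highest region as cluster value, no trend, other thresholds for calling, stitching and start sites, and leaving out each library. The number in the name of ERKi 4h replicate 1 is out of order with the others, and it was among the libraries left out.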

Additional observations from a re-analysis of the deposited data

How the results depend on the processing

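By percentile of fold enrichment the counts were 1 cluster higher at 4h, 2 clusters lower at 4h, 27 clusters higher at 24h, 0 clusters lower with ERKi at 4h, 1 cluster lower with ERKi at 24h, 13 regions called at 4h, 188 regions called at 24h, 0 regions called with ERKi at 4h and 60 regions called with ERKi at 24h. By percentile of −log10 p there were 13 clusters higher at 4h, 47 clusters higher at 24h, 12 clusters lower at 24h, 0 clusters lower with ERKi at 4h, 3 clusters higher with ERKi at 24h, 6 clusters lower with ERKi at 24h, 70 regions called at 4h, 280 regions called at 24h, 0 regions called with ERKi at 4h and 65 regions called with ERKi at 24h, and by log2 pileup relative to the median of the list 22 clusters higher at 4h, 1 cluster lower at 4h, 9 clusters lower with ERKi at 24h and 95 regions called at 4h. By percentile of pileup minus local background, an alternative chosen after seeing the data, every count stayed within 1.5 times the main one. With the highest region as the cluster value there were 0 clusters lower with ERKi at 4h and 9 clusters lower with ERKi at 24h, and without the mean-variance trend 0 clusters lower with ERKi at 4h and 12 clusters lower with ERKi at 24h. With the replicate block there were 135 clusters higher at 4h, 17 clusters lower at 4h, 191 clusters higher at 24h, 107 clusters lower at 24h, 3 clusters higher with ERKi at 4h, 27 clusters lower with ERKi at 4h, 94 clusters higher with ERKi at 24h, 82 clusters lower with ERKi at 24h, 8 clusters whose ERKi effect differed between the times, 521 regions called at 4h, 1114 regions called at 24h, 96 regions called with ERKi at 4h and 633 regions called with ERKi at 24h, and the block removed none of the 45 named calls. With the 500 clusters rebuilt from peaks at a −log10 q of at least 10 the counts were 1 cluster lower at 4h, 4 clusters lower with ERKi at 4h, 11 clusters lower with ERKi at 24h, 98 regions called at 4h, 274 regions called at 24h, 2 regions called with ERKi at 4h and 46 regions called with ERKi at 24h, and from regions covered by peaks over at least 0.5 of their length 2 clusters lower with ERKi at 4h, 5 clusters higher with ERKi at 24h, 3 clusters lower with ERKi at 24h, 62 regions called at 4h, 167 regions called at 24h, 2 regions called with ERKi at 4h and 20 regions called with ERKi at 24h. Stitching at 5000 bp gave 1 cluster lower at 4h, 2 clusters lower with ERKi at 4h, 306 regions called at 24h and 71 regions called with ERKi at 24h, and start sites of all genes 2 clusters lower with ERKi at 4h. Of the 500 clusters, 281, 230, 218 and 426 overlapped a cluster of these 4 rebuilt sets. Leaving out each library gave 16 to 41 clusters higher at 4h, 66 to 105 clusters higher at 24h, 12 to 42 clusters lower at 24h, 0 to 2 clusters lower with ERKi at 4h, 4 to 21 clusters higher with ERKi at 24h, 8 to 20 clusters lower with ERKi at 24h, 69 to 176 regions called at 4h, 328 to 547 regions called at 24h, 0 to 11 regions called with ERKi at 4h and 66 to 143 regions called with ERKi at 24h. Clusters lower at 4h, clusters higher with ERKi at 4h and clusters whose ERKi effect differed between the times stayed at 0 without any of the libraries. The cause of these changes was not tested.

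Of the 45 called differences of named clusters, 29 had the opposite sign by percentile of fold enrichment, 14 kept the sign without passing and 2 passed with the same sign. At 4h the reversed differences were Nuak2 -4.06, 4921513I03Rik -6.77, 1700024P04Rik -11.4, Acvr1 -5.08 and Snai1 -7.74. At 24h the reversed differences were Nuak2 -8.28, 4921513I03Rik -25.9, Csf2 -4.72, Sox9-1 -8.5, 1700024P04Rik -14.9, Ankrd55 0.451, Tprg 19.1, Ier3-1 -3.98, Tgif1 -13.4, Map4k3 8.26, Acvr1 -10.4, Ehf 2.12, Snai1 -20.9, Tnc -15.7, Tjp1 2.91 and Nnmt 20.2. With ERKi at 24h the reversed differences were 4921513I03Rik 19.6, Csf2 6.96, Itga3 2.26, Tprg 7.73, Tgif1 17.1, Smad7 8.73, Tcf7l2-1 -2.96 and Nnmt -4.99. Of these 29, 10 passed the test with the opposite sign. At 24h they were Nuak2, 4921513I03Rik, Tprg, Tgif1, Acvr1, Snai1, Tnc and Nnmt, and with ERKi at 24h 4921513I03Rik and Tgif1. By −log10 p, 20 passed, 24 kept the sign without passing, and Acvr1 at 24h turned to -0.412. By log2 pileup 38 passed, by pileup minus background 38, by the highest region 30 and without trend 40, and the others of each kept their sign. By the highest region, those lost were Nuak2 at 4h, Nuak2, Dusp6, Ankrd55, Tprg, Tgif1, Map4k3 and Tjp1 at 24h, Fzd5 with ERKi at 4h and 4921513I03Rik, Tprg, Tgif1, Smad7, Tcf7l2-1 and Gpr157 with ERKi at 24h. Of the 675 fits without a library, 600 kept the call and 75 lost it, all with the same sign. The ERKi differences at 24h of Errfi1 and Otub1 passed under every alternative that kept the 500 clusters. The lists hold no read totals, so depth is unknown and no limit from it could be set.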

Other observations

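The 5 clusters with the highest local background stood high by pileup and lower by fold enrichment. The Mdm2 cluster had a mean background of 505 fragments under a pileup of 2156, and 2 of the 3 clusters near Glis3 had 348 and 216 fragments under pileups of 1142 and 579. Those near Pax2 and Spns2 followed, with 201 and 123 fragments under pileups of 713 and 256, and the next was the cluster near Scd2, with 116 fragments. The median cluster region had 21.96 fragments under 101. By percentile of fold enrichment, these 5 clusters stood at 47.4, 27.6, 16.8, 30.8 and 3.30, whereas by pileup all were above 90.

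Regions of 1 cluster differed widely in level. The range between the highest and the lowest region of a cluster had a median of 30.6 percentiles over the 500 clusters and reached 79.02. The differences between conditions were smaller in the long clusters than in the other 8920 in all 4 comparisons. At 24h against 0h the median absolute difference was 7.61 percentiles against 10.8, with median standard errors of 5.05 and 6.66. The long clusters average more regions, of which they hold a median of 4 against 1, and stand nearer to the top of the scale, and the part of either in this was not tested.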
